A study of Homo sapiens with 9 samples.

Results

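RNA polymerase II (RNAPII) is built from subunits encoded by separate genes, and 10 of these genes are described here: POLR2A, POLR2B, POLR2C, POLR2D, POLR2E, POLR2F, POLR2G, POLR2H, POLR2I and POLR2K. They were chosen by name, as core subunits of the protein to which the DNA helicase RECQL5 binds, out of 19894 protein-coding genes, and all 10 were found in the annotation. A peak, a stretch of DNA enriched for RNAPII, was assigned to a gene when it overlapped the gene's GENCODE span on GRCh37 widened by 500 bp on each side. The study used RNAPII ChIP-seq, the sequencing of DNA pulled down with the polymerase, to ask how RECQL5 affects the distribution of the polymerase. All cells were of the human embryonic kidney line HEK293. In one arm HEK293 cells were infected with lentivirus, carrying either a control hairpin (the empty pLKO.1 vector per the study's methods) or the hairpins shRNA5 or shRNA7 against RECQL5. In the other arm HEK293 T-REx cells, transfected with a pcDNA4/TO plasmid and selected with Zeocin, expressed full-length RECQL5 from a doxycycline-inducible promoter. These cells were grown with 0.0 or 1.0 ng/ml doxycycline, so both groups carried the plasmid, in addition to their own RECQL5 gene. Each of these 5 groups had 1 RNAPII library, and 4 libraries made with non-specific IgG served as background in peak calling. Each hairpin had its own IgG library, and a single IgG library served both doxycycline lists. There were no replicates, so every difference below is between single libraries, no test between conditions was possible, and no p-value is given. Intervals cover counting error only. RECQL5 protein itself is not measured by these lists.

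RNAPII transcribes all protein-coding genes. POLR2A and POLR2B, the largest subunits, together form the active site, and POLR2A carries the long repeated tail that is phosphorylated as the polymerase moves from the start of a gene into its body. POLR2C is part of the assembly platform, POLR2D and POLR2G form a stalk beside the RNA exit channel, POLR2I contacts the DNA ahead of the active site, and POLR2E, POLR2F, POLR2H and POLR2K are shared with RNA polymerases I and III. On active genes RNAPII usually gathers near the transcription start site, and it continues past the site where the RNA is cleaved before it leaves the DNA.

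The promoters that the results turn on are shown first, since at several of these genes the position of the RNAPII summit (the highest point of a peak) shows at which of the annotated starts a peak was highest. The sequences are from RefSeq (GRCh38.p14), run from 250 bases before a start to 50 bases after it, and were placed on GRCh37 by an exact match. Of the 10 genes, 7 were included, with 9 matched promoters. No promoter of POLR2G, POLR2I or POLR2K was included, so the motif counts leave these genes out. Capitals mark the motifs, which were searched on both strands. TATAAA is the TATA box, and the pentamer CCAAT was searched as well. The GC box was searched as GGGCGG and the core of ETS sites as CCGGAAG. For NRF1 the letters were GCATGCGC. This motif overlaps its own reverse complement, so 1 place can match on both strands. The POLR2A promoter lies at chr17:7387435-7387734 on the plus strand, POLR2B at chr4:57844812-57845111 (plus), and the POLR2F promoter shown, whose start is that of the main transcript, at chr22:38349456-38349755 (plus). POLR2H has an upstream promoter at chr3:184079248-184079547 and an inner one at chr3:184080899-184081198, both on the plus strand, with starts 1651 bp apart.
POLR2A: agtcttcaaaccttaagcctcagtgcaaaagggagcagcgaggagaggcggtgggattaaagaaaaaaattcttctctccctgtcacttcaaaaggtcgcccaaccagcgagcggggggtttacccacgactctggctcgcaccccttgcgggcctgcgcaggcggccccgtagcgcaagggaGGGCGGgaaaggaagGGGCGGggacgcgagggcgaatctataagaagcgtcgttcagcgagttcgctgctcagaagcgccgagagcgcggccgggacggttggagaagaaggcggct
POLR2B: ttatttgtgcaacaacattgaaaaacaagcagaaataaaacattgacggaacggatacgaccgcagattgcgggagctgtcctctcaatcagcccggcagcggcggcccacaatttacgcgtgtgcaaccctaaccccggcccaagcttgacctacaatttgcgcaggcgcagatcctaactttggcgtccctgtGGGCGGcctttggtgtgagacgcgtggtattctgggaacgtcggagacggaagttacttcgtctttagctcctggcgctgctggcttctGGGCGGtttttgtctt
POLR2F: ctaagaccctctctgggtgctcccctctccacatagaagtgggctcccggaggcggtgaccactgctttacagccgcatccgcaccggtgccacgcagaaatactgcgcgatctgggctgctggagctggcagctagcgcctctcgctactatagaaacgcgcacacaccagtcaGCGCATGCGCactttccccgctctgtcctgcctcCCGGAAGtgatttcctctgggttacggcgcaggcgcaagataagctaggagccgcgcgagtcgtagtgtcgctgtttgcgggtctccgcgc
POLR2H upstream: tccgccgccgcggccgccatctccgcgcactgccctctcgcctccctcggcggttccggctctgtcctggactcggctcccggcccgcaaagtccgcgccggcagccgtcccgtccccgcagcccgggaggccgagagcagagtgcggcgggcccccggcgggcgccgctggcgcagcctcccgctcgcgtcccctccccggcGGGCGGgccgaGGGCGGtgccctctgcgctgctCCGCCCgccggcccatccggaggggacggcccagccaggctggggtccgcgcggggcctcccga
POLR2H inner: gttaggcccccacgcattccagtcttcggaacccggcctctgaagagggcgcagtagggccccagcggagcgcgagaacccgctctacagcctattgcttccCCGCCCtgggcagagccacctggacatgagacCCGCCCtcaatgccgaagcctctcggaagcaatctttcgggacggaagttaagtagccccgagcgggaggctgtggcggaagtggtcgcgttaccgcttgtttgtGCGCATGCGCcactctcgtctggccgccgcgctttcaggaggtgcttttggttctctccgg

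None of the 9 promoters held TATAAA or CCAAT in these windows, against 11.5% and 34.6% of all 35116 promoters of the same length. GGGCGG was in 6 of the 9, including 3 copies in the upstream POLR2H promoter, and in 45.0% of all promoters. CCGGAAG was in 4 of the 9, from POLR2C, POLR2D and POLR2F (10.3% of all promoters). GCATGCGC was in both overlapping POLR2F promoters and in the inner POLR2H promoter (3.05% of all promoters). GC content was 61.3% in POLR2A, 54.0% in POLR2B, 62.3% in POLR2F, 81.7% in the upstream and 63.7% in the inner POLR2H promoter, against a median of 58.7% over all promoters. A match is a description of the letters only.

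In control shRNA cells 5 of the 10 genes had a peak (23.0% of all protein-coding genes did), namely POLR2A, POLR2E, POLR2H, POLR2I and POLR2K. Upon shRNA5 9 genes had one (53.1% of all genes), with POLR2G as the exception, and upon shRNA7 9 had one (61.1% of all genes), with POLR2I as the exception. All 10 had a peak without doxycycline (64.7% of all genes) and with it (54.2% of all genes). Thus the subunit genes had peaks more often than protein-coding genes in general in each of the 5 lists. Of them, 4 (POLR2B, POLR2C, POLR2D and POLR2F) had none in the control list but one in both hairpin lists. The share of all genes with that pattern was not computed, so it is not read as particular to the subunit genes. A gene without a listed peak may still have held RNAPII below the caller's threshold. It is not known whether the shRNA7 list is complete, since it has long stretches without any peak where the other lists have many. The study's methods also report more peaks than the control, shRNA5 and shRNA7 lists hold, and in proportion the control list falls furthest short. A gene without a control peak here may therefore have had one among those that the study counted.

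A peak within 500 bp of the start of the main transcript (the one marked canonical in the annotation) was present at 3 genes in the control list (16.2% of all genes), at 8 each upon shRNA5 (42.3%) and shRNA7 (50.5%), and at 10 each without (54.8%) and with doxycycline (46.2%). A peak within 500 bp of the end of that transcript was present at 4 genes in the control list (8.36% of all genes), 9 upon shRNA5 (24.3%), 8 upon shRNA7 (34.4%), 6 in untreated T-REx cells (18.5%) and 3 with doxycycline (14.3%). Peaks at the end were therefore gained by 5 and 4 of the genes, net, with the hairpins and lost by 3 with doxycycline.

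**Figure D1:**
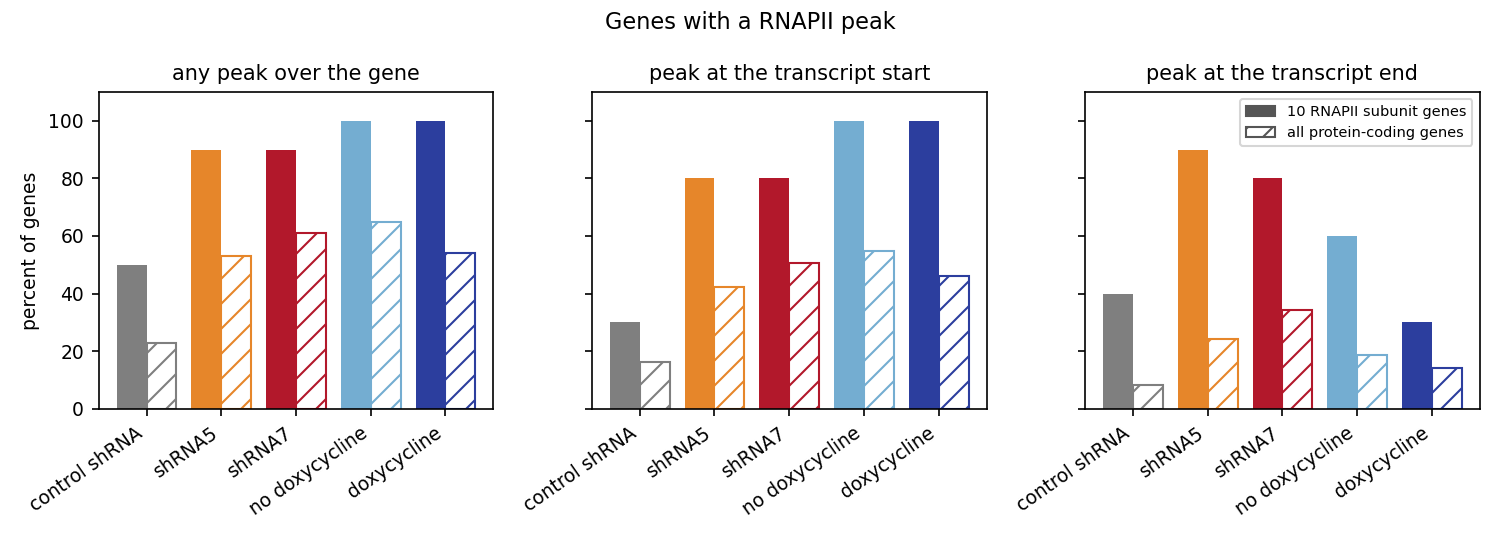
Percent of genes (y axis) with a RNAPII peak anywhere, at the transcript start and at the transcript end, in each of the 5 peak lists (x axis). Solid bars are the 10 RNAPII subunit genes and hatched bars all 19894 protein-coding genes, and the solid bar is the taller in every pair.

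POLR2A (chr17:7387685-7417933, plus strand), the catalytic subunit, had peaks in each of the 5 lists. They covered 45.5% of its 30.2-kb span in control cells, 70.0% upon shRNA5, 98.8% upon shRNA7, 95.0% in untreated T-REx cells and 99.4% with doxycycline. Its peaks held 1411, 2332 and 3641 tags (sequenced reads, each counted once) in control, shRNA5 and shRNA7 cells, and 1453 and 2463 tags without and with doxycycline. The tags therefore rose by 1.65-fold with shRNA5 (95% interval 1.55 to 1.77), by 2.58-fold with shRNA7 (2.43 to 2.75) and by 1.70-fold with doxycycline (1.59 to 1.81). POLR2A was thus higher in all 3 contrasts, that is, upon either hairpin and upon RECQL5 induction. Both hairpin contrasts share the control list.

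**Figure D2:**
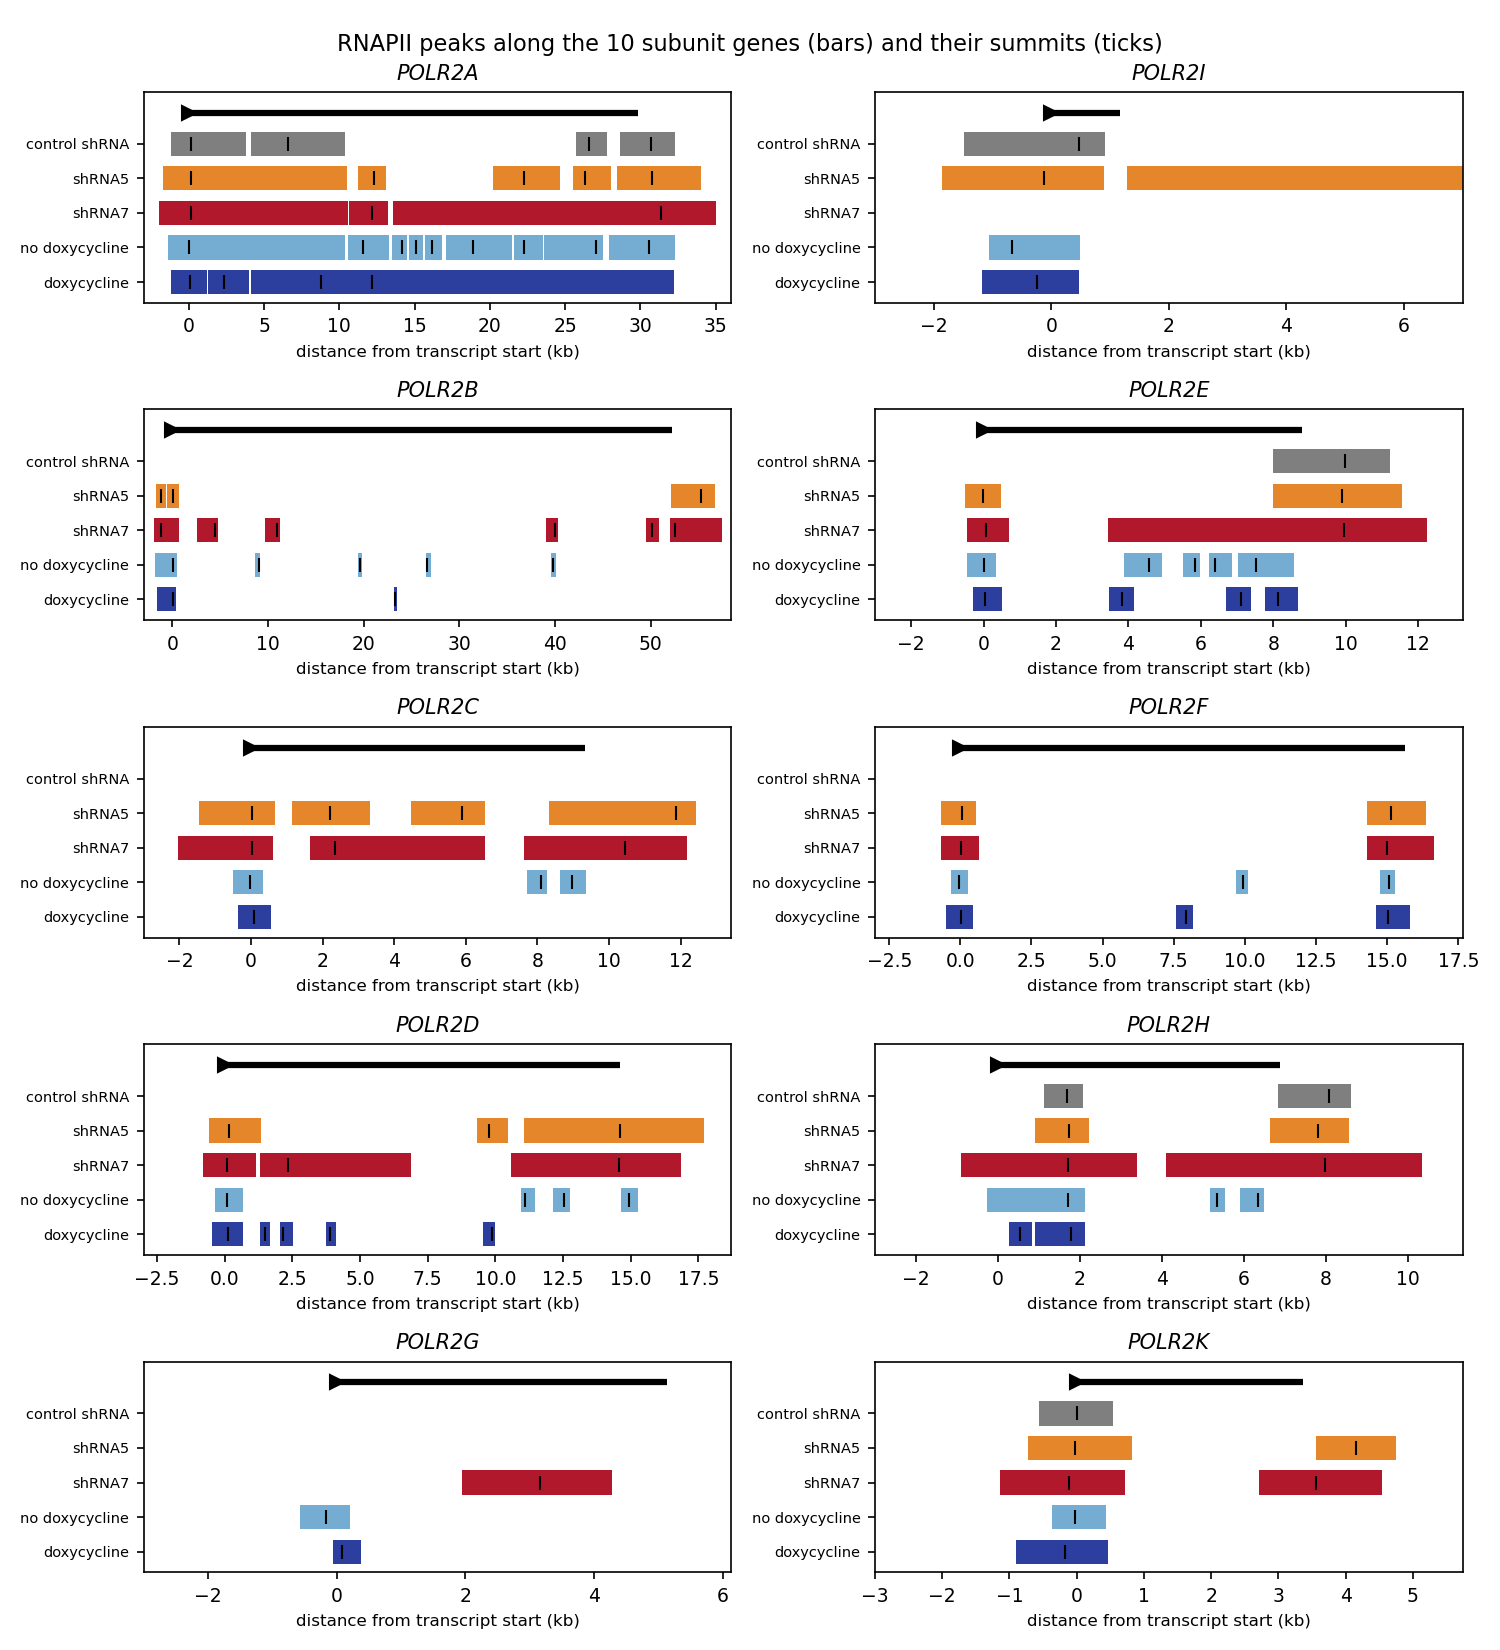
RNAPII peaks along the 10 genes, plotted by distance from the main transcript start in kb (x axis), with 1 row for each of the 5 peak lists. Bars are peaks, ticks are summits, and the black line with its arrowhead is the transcript. The POLR2I panel ends at 7 kb and cuts off the 23.8-kb shRNA5 peak, and POLR2B and POLR2F keep isolated peaks while POLR2A is covered nearly from end to end in 3 of the lists.

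The first peak of POLR2A had its summit 143, 148 and 128 bp past the start in control, shRNA5 and shRNA7 cells, and 32 and 51 bp past it without and with doxycycline, all within exon 1. This start is that of the POLR2A promoter printed above. ZBTB4 begins 103 bp before it on the other strand. In all 5 lists the first peak also touched ZBTB4 and SLC35G6, so its reads cannot be divided between these genes. In each of the 5 lists a peak ended between 10.3 and 10.6 kb from the start, inside the first intron, which runs to exon 2 at 11.6 kb. This boundary, noticed in the data, allowed the gene to be divided into peaks ending before 11 kb and the rest.

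In the first stretch, tags rose from 1108 in control cells to 1529 upon shRNA5 (1.38-fold, 1.28 to 1.49) and 1994 upon shRNA7 (1.80-fold, 1.67 to 1.94). Over the rest of the gene and past its end, they rose from 303 to 803 (2.65-fold, 2.32 to 3.03) and 1647 (5.44-fold, 4.81 to 6.16). The sums cover unlike lengths. Peaks of the first stretch covered 11.2, 12.2 and 12.6 kb in control, shRNA5 and shRNA7 cells, and those of the rest 5.73, 14.4 and 24.1 kb. Tag density went from 99.0 to 125 and 158 tags per kb in the first stretch and from 52.9 to 55.6 and 68.4 tags per kb in the rest. By density, therefore, the first stretch had the larger ratio to the control, and the gain in tags over the rest came mostly with more length under peaks. In control cells the stretch between 10.4 and 25.7 kb from the start had no peak at all. With shRNA7, a single 21.5-kb peak with 1528 tags ran from 13.5 kb to 5.23 kb past the end of the transcript.

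With doxycycline the tags in the first stretch went from 805 to 1014 (1.26-fold, 1.15 to 1.38) and those in the rest from 648 to 1449 (2.24-fold, 2.04 to 2.46). The larger gain was over the gene body, in tags and in tags per kb (68.7 to 89.7 in the first stretch). The length under peaks was 11.7 kb without and 11.3 kb with doxycycline in the first stretch, and 20.4 and 21.9 kb in the rest. Tag density in the rest was 31.8 tags per kb without and 66.2 tags per kb with doxycycline. Without the drug the gene body held 8 separate peaks, and with it a single 21.9-kb peak whose summit was in exon 4. At the start itself, the 11.7-kb first peak of untreated cells (805 tags, 68.7 tags per kb) was divided with doxycycline into 3 peaks, of which the first, 2.41 kb long, held 518 tags at 215 tags per kb.

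POLR2B (chr4:57843888-57897324, plus strand), the second largest subunit, had 0 peaks in the control list, 3 with 332 tags upon shRNA5 and 6 with 753 tags upon shRNA7. It had 5 peaks with 120 tags without doxycycline and 2 with 114 tags with it. Unlike POLR2A, therefore, POLR2B showed no rise in tags with doxycycline beyond counting error (0.95-fold, 0.729 to 1.24), although its covered length fell from 3.74 to 1.87 kb. The gene has an upstream start 1174 bp before that of the main transcript, back to back with NOA1. Upon shRNA5 each start had a peak of its own, with 52 tags at the upstream start (summit 49 bp before it) and 72 tags at the main start (summit 63 bp past it). Upon shRNA7 1 peak with 222 tags covered both, and its summit was 8 bp from another annotated start beside the upstream one. Without and with doxycycline the summits were 23 and 45 bp past the main start, in the promoter printed above, with 79 and 103 tags. Reads at the upstream start cannot be divided between POLR2B and NOA1.

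Inside POLR2B the hairpin lists differed from one another. There were 4 peaks within introns upon shRNA7, with 47 to 91 tags, and 0 upon shRNA5. The FDR (the authors' false discovery rate of the peak) of these 4 was 11.4%, 3.96%, 6.32% and 2.56%. It reached 19.6% in the whole shRNA7 list and 1.69% in the shRNA5 list, so the lists differ in how loosely peaks were called. In both lists a further peak lay across the end of the gene, with 208 tags (shRNA5) and 273 tags (shRNA7), and it touched IGFBP7, transcribed in the opposite direction. Neither doxycycline list had a peak there, and the 4 inner peaks without doxycycline held only 9 to 11 tags each.

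POLR2C (chr16:57496572-57505921, plus strand), which belongs to the assembly platform, went from 0 peaks in control cells to 4 with 516 tags upon shRNA5 and 3 with 667 tags upon shRNA7. Peaks covered 63.8% and 77.2% of it. In the other arm 3 peaks with 50 tags covered 16.9% without doxycycline, and 1 peak with 48 tags covered 6.18% with it. With doxycycline the start peak held 48 tags in place of 28 (1.71-fold, 1.05 to 2.84), while the peaks at 8.11 and 8.96 kb were no longer called. POLR2C thus kept a peak at its start only. The end peaks of the hairpin lists, with 183 and 253 tags, had summits 2.54 and 1.11 kb past the end and touched DOK4, which is transcribed toward POLR2C.

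Among the stalk subunits, POLR2D (chr2:128601127-128615729, minus strand) had 0 peaks in control cells, 3 with 587 tags upon shRNA5 and 3 with 969 tags upon shRNA7. It had 4 peaks with 82 tags without and 5 with 114 tags with doxycycline (1.39-fold, 1.04 to 1.87). In both hairpin lists the peak at the end of POLR2D held more tags than the one at its start, 430 against 116 upon shRNA5 and 562 against 128 upon shRNA7. Per kb these were 64.6 against 60.7 tags upon shRNA5 and 89.4 against 65.7 tags upon shRNA7. The summits lay 2 bp past and 24 bp before the annotated end, with no other coding gene in the peak. In the doxycycline arm the order was the other way round, with 49 tags at the start and 11 at the end without the drug, and 64 tags at the start and no end peak with it.

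POLR2G (chr11:62529037-62534182, plus strand), the partner of POLR2D, had the lowest start-peak density in both doxycycline arm lists, 25.9 tags per kb without and 27.5 with the drug. It had no peak in the control and shRNA5 lists, 1 with 95 tags upon shRNA7, and 1 each with 20 and 12 tags without and with doxycycline. The shRNA7 peak was not at the start, having its summit in intron 3 at 3.17 kb and an FDR of 8.24%. The doxycycline arm peaks did lie at the start. Further downstream, from 2.08 to 5.54 kb past the end of POLR2G, the shRNA7 list held another peak with 187 tags, and the shRNA5 list held one with 74 tags from 3.65 to 5.51 kb past it. The next gene, TAF6L, begins in that stretch.

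POLR2I (chr19:36604611-36606115, minus strand), the shortest of the genes at 1.51 kb, was the one with more tags than the control at its start in one hairpin list and no peak in the other. The peak at its start held 124 tags in control cells and 220 tags upon shRNA5 (1.77-fold, 1.42 to 2.23), and no peak was called upon shRNA7. The peak held 88 tags without and 107 with doxycycline (1.22-fold, 0.908 to 1.63). At all 4 of these the peak also touched TBCB, whose gene overlaps POLR2I on the other strand, so the reads cannot be divided between them.

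Upon shRNA5 a second peak came within 500 bp of POLR2I. It was 23.8 kb long and held 2019 tags, and its summit was 7.21 kb past the end of POLR2I, over OVOL3 and WDR62. It supplied 2019 of the 6806 tags that the shRNA5 list held over all 10 genes. Upon shRNA7 the missing peak was part of a longer gap, in which no peak was listed for 232.7 kb (chr19:36422958-36655686) with 12 coding genes. The control, shRNA5, no doxycycline and doxycycline lists held 13, 23, 58 and 41 peaks in that stretch. The shRNA7 list had 43 such gaps in which the control list had at least 5 peaks, and together they held 272 of the 5287 control peaks (5.14%). Whether peaks are missing from the shRNA7 list there is not known, so its 0 at POLR2I gives no direction, and the part of the gap in the result was not tested.

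Of the subunits shared by the 3 polymerases, POLR2E (chr19:1086573-1095379, minus strand) had 1, 2 and 2 peaks with 144, 288 and 789 tags in control, shRNA5 and shRNA7 cells. The rise was 2.0-fold (1.63 to 2.46) with shRNA5 and 5.48-fold (4.58 to 6.59) with shRNA7. Without doxycycline 5 peaks held 135 tags, and with it 4 peaks held 112 tags (0.830-fold, 0.640 to 1.07). In control cells the only peak of POLR2E was at its end. The summit of the end peak lay 1.19, 1.11 and 1.15 kb past the end in the 3 hairpin arm lists, with 144, 245 and 724 tags, while the start held 43 and 65 tags upon shRNA5 and shRNA7. The end peaks touched ARHGAP45, transcribed toward POLR2E. In the doxycycline arm the end peaks had their summits inside the gene, at 7.52 and 8.13 kb from the start.

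POLR2F (span chr22:38348614-38437922, plus strand) had no peak in control cells, 2 with 168 tags upon shRNA5 and 2 with 202 tags upon shRNA7. It had 3 peaks with 46 tags without and 3 with 105 tags with doxycycline, which was the largest rise with the drug among the 10 genes (2.28-fold, 1.60 to 3.30). The rise was seen at the start, where tags went from 26 to 41 (1.58-fold, 0.942 to 2.69, an interval that includes no change), and at the end, where they went from 11 to 47. The main transcript is 15.6 kb long, much shorter than the annotated span, and 11.9%, 12.7%, 7.84% and 13.1% of it was covered in the shRNA5, shRNA7, no doxycycline and doxycycline lists. In these 4 lists there was a summit in the last exon, exon 5, between 14.98 and 15.14 kb from the start, and one within 69 bp of the start. The summit near the start lay inside the promoter shown above except upon shRNA5, where it was 69 bp past the start and beyond that sequence. The peak at the start also touched C22orf23, on the other strand, so its reads cannot be divided between the genes.

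POLR2H (chr3:184079498-184086384, plus strand) had 2 peaks with 115 tags in control cells, 2 with 189 upon shRNA5 (1.64-fold, 1.30 to 2.09) and 2 with 634 upon shRNA7 (5.51-fold, 4.51 to 6.78). It had 3 peaks with 109 tags without doxycycline and 2 with 67 tags with it (0.615-fold, 0.446 to 0.841). It was the only one of the 10 genes whose tags in peaks fell with doxycycline by more than counting error. In all 5 lists the gene's first stretch had its summit in exon 2 beside the inner start, 27, 85, 61, 48 and 123 bp past the start of the inner promoter printed above in the control, shRNA5, shRNA7, no doxycycline and doxycycline lists. The upstream promoter, which is the start of the main transcript and lies back to back with CLCN2, was inside a peak only upon shRNA7 and without doxycycline, and no summit lay there. With doxycycline a further peak with 18 tags had its summit in intron 1, 533 bp past the upstream start.

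POLR2K (chr8:101162851-101166231, plus strand), the smallest of the shared subunits, had 1, 2 and 2 peaks with 52, 155 and 236 tags in control, shRNA5 and shRNA7 cells. The tags rose by 2.98-fold (2.16 to 4.16) and 4.54-fold (3.35 to 6.25). The start peak alone rose from 52 to 107 (2.06-fold, 1.46 to 2.92) and 147 tags (2.83-fold, 2.05 to 3.96), and the rest of the gain was an end peak with 48 and 89 tags that the control list lacked. Without and with doxycycline the start peak held 46 and 59 tags (1.28-fold, 0.858 to 1.93), and there was no end peak. No other coding gene was touched.

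**Figure D3:**
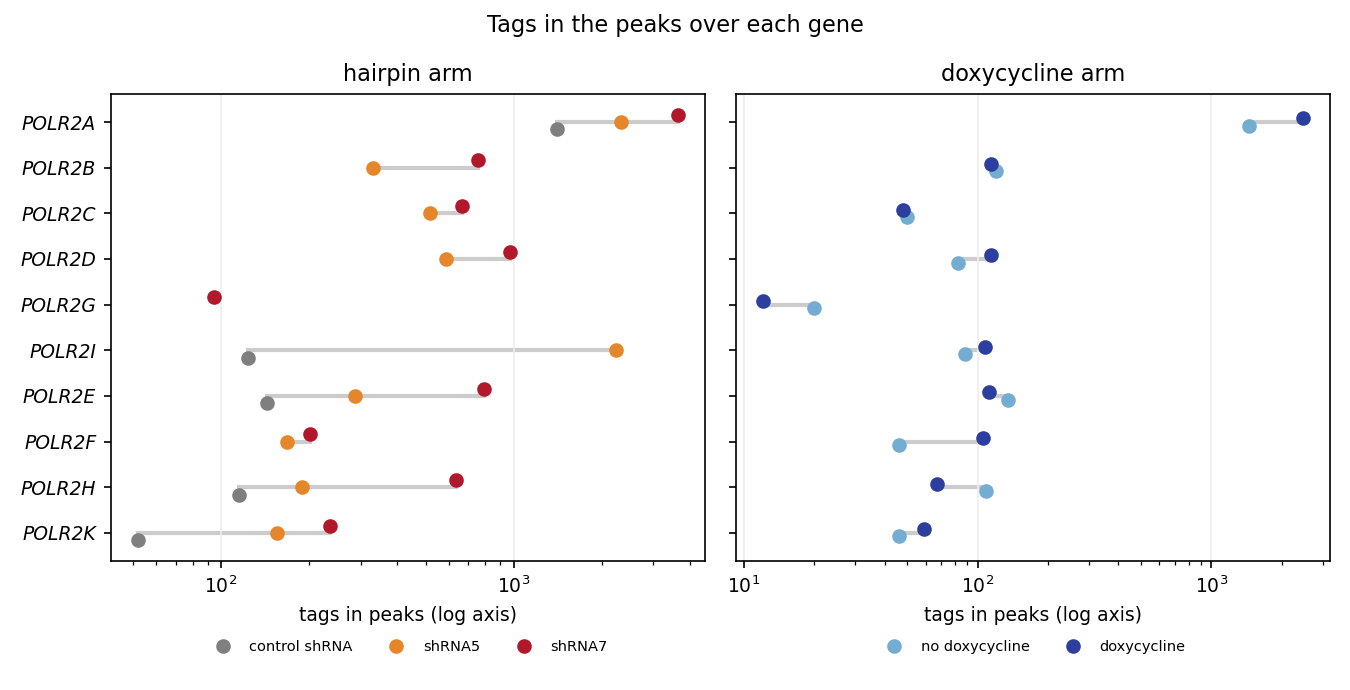
Tags in the peaks over each gene (x axis, log scale) for the 3 lists of the hairpin arm and the 2 lists of the doxycycline arm. Each dot is a single library and a missing dot means no peak, and tags are not divided by gene length. The POLR2A dots of the doxycycline arm lie apart, at 1453 and 2463 tags.

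Most of the genes with a peak had a summit close to an annotated start, and any annotated coding start of the gene could count. The same share over all protein-coding genes was not computed. Of the genes with a peak, 3 of 5 in the control list, 9 of 9 upon shRNA5, 8 of 9 upon shRNA7, 9 of 10 without doxycycline and 9 of 10 with it had a summit within 200 bp of an annotated coding start. The exceptions were POLR2E and POLR2I in control cells, POLR2G upon shRNA7, and POLR2I in both doxycycline arm lists. Start peaks of POLR2A were the densest in every list. They held 144, 125 and 158 tags per kb in control, shRNA5 and shRNA7 cells, and 68.7 (untreated) and 215 (doxycycline) tags per kb in the other arm. The start peaks of the other genes held 43.6 (POLR2E) to 79.6 (POLR2I) tags per kb upon shRNA5 and 55.8 (POLR2F) to 85.1 (POLR2B) tags per kb upon shRNA7. With doxycycline they held 27.5 (POLR2G) to 64.7 (POLR2I) tags per kb.

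Past the ends of the genes, both lists with a hairpin against RECQL5 had more coverage than the control list. Of the 5 kb past the end of each main transcript, peaks covered a median of 0.0% over the 10 genes in control cells, 58.5% upon shRNA5, 57.8% with shRNA7, 6.37% in untreated T-REx cells and 0.0% with doxycycline. Over all protein-coding genes the mean was 5.29%, 18.3%, 27.5%, 9.15% and 6.95% in the same order, and the median was 0.0% in each list. This stretch had some peak at 4, 10 and 9 of the genes in the hairpin arm lists. Summits of end peaks lay past the end at 3 genes in control cells (POLR2A, POLR2E and POLR2H), at 8 upon shRNA5, at 6 upon shRNA7, at 2 in untreated T-REx cells and at 0 with doxycycline. For these summits, too, no share over all genes was computed. Neighbors transcribed toward POLR2B, POLR2C and POLR2E share these peaks, whereas those past POLR2A, POLR2D and POLR2K touched no other coding gene. Past POLR2I the shRNA5 peak lay over OVOL3 and WDR62, and TAF6L begins in the stretch past POLR2G.

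**Figure D4:**
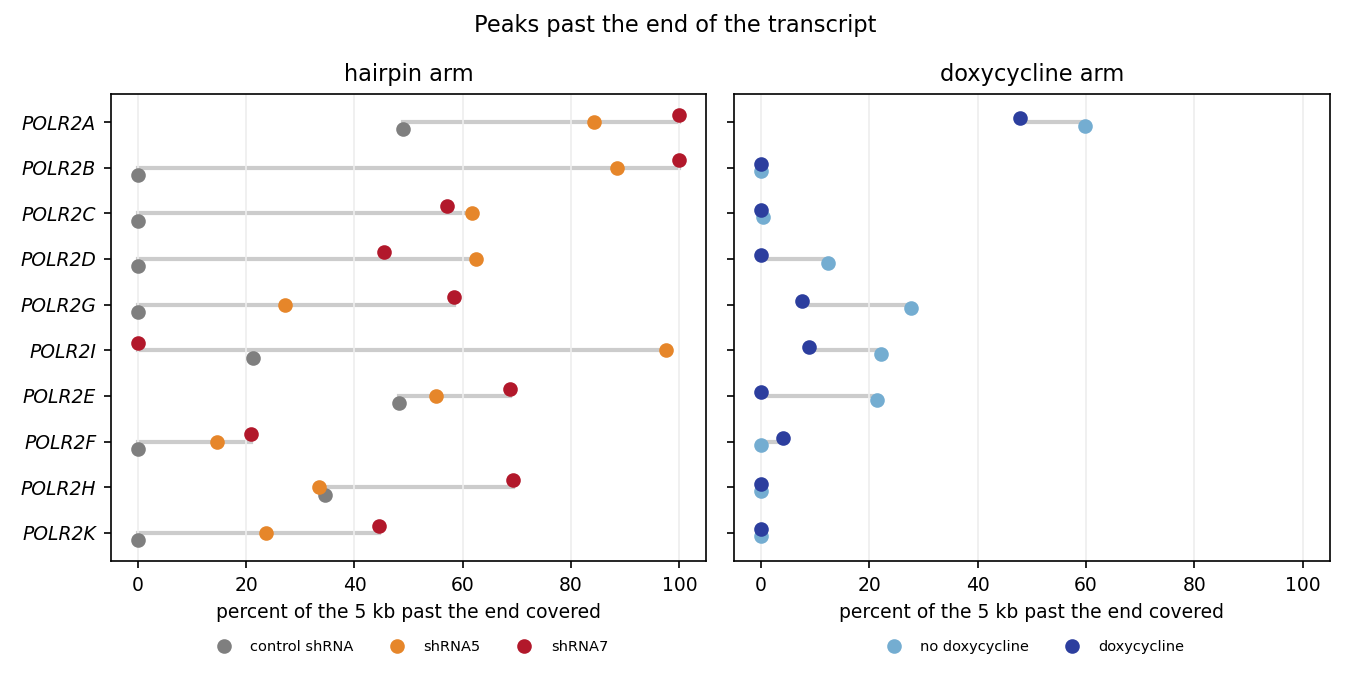
Percent of the 5 kb past the end of each main transcript that peaks covered (x axis), for each gene (y axis) and list. Each dot is a single library, and in the hairpin arm POLR2A and POLR2B reached 100% upon shRNA7 while POLR2I had 0.

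Added over all 10 genes, 9, 25 and 24 peaks held 1846, 6806 and 7986 tags in control, shRNA5 and shRNA7 cells, a rise of 3.69-fold (3.50 to 3.88) and 4.33-fold (4.11 to 4.55). Without POLR2I, the gene with the long shRNA5 peak and the shRNA7 gap, the folds were 2.65 (2.51 to 2.80) and 4.64 (4.40 to 4.89). Without POLR2A the folds were 10.3 (9.32 to 11.4) with shRNA5 and 9.99 (9.05 to 11.05) with shRNA7. The ratio of shRNA7 to shRNA5 was then 0.971 (0.931 to 1.01), an interval that includes no difference. Of the 4474 shRNA5 tags in that sum, 2019 were in the long peak near POLR2I, over OVOL3 and WDR62. Pooled tag density inside the peaks was 70.0, 72.2 and 74.4 tags per kb, and the summed peak length 26.4, 94.3 and 107 kb. The pooled density mixes unlike sets of genes, since POLR2A, the densest, held 76.4%, 34.3% and 45.6% of the tags. Within genes, density rose at POLR2A (83.4, 87.4 and 99.3 tags per kb) and POLR2E (44.5, 63.4 and 79.4). It also rose at POLR2H (42.1, 58.3 and 60.1) and POLR2K (47.2, 56.8 and 64.0). At POLR2I the start peak, shared with TBCB, went from 52.0 to 79.6 tags per kb with shRNA5, leaving out the long downstream peak. The additional tags thus came with additional length under peaks and, at these genes, with higher density. All peaks of the whole lists held 842310, 3778665 and 6698771 tags in control, shRNA5 and shRNA7 cells. With either hairpin that was a larger fold than over the 10 genes, and a smaller one than over the genes without POLR2A.

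In the doxycycline arm 35 peaks held 2149 tags without the drug and 24 held 3201 with it, a rise of 1.49-fold (1.41 to 1.57). POLR2A held 67.6% of these tags without and 76.9% with doxycycline. Without POLR2A the sums were 696 and 738 tags, and the fold was 1.06 (0.955 to 1.18). The rise over the 10 genes thus rested on POLR2A. The summed peak length was 53.9 and 50.3 kb, and the density 39.9 and 63.6 tags per kb. All peaks of the whole lists held 1449163 tags without and 1539844 with doxycycline, a smaller fold than over the 10 genes and near that without POLR2A.

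By covered length, 4 of the 9 genes with a peak in either list were at least 2 times higher upon shRNA5 than in control cells (83.4% of all genes with a peak in either list), and 9 of 10 were upon shRNA7 (90.3% of all such genes). The 4 were those without a control peak, and the other genes that rose with shRNA5 did so by 1.51-fold (POLR2K) to 1.56-fold (POLR2H). With peaks of a score (10 times the −log10 p-value) of at least 100 alone, 7 genes were at least 2 times higher upon shRNA5, so the count of 4 depends on the threshold. At that score only 2 of the 10 genes had a control peak, and the share over all genes was not computed. None was at most 1/2 upon shRNA5 (0.345% of all such genes), and POLR2I alone was upon shRNA7 (1.71%). With doxycycline 0 of 10 were at least 2 times higher (5.51% of all such genes) and 2, POLR2B and POLR2C, were at most 1/2 (39.3%). Among genes with some coverage, the median share of the span covered was 16.3%, 24.6%, 68.8%, 15.1% and 15.2% for the subunit genes in the control, shRNA5, shRNA7, no doxycycline and doxycycline lists, and 5.95%, 9.57%, 14.8%, 4.52% and 3.87% for all genes. The median span was 9.08 kb for the subunit genes and 27.6 kb for all genes, and the part of this difference in length in the shares was not tested.

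**Figure D5:**
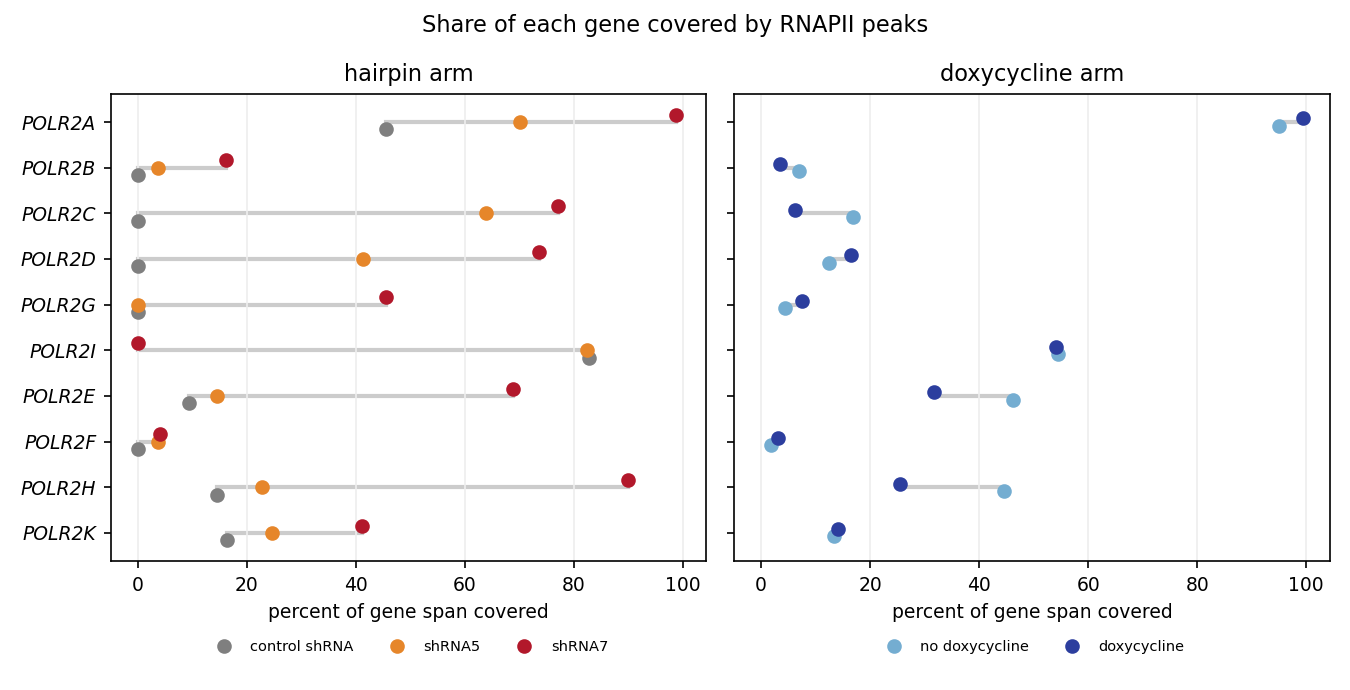
Percent of each gene's annotated span covered by peaks (x axis) in the hairpin arm and the doxycycline arm. Each dot is a single library, and upon shRNA7 the share lies above the control at 9 genes while POLR2I has 0.

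Genes of related machinery were counted in the same way. The remaining subunit genes, POLR2J and POLR2L, had a peak at 1, 2, 2, 2 and 2 of 2 in the control, shRNA5, shRNA7, no doxycycline and doxycycline lists. POLR2J held 246, 672 and 963 tags in the hairpin arm and 503 and 425 in the doxycycline arm. POLR2L held 0, 313 and 1277 tags, and 223 and 181 tags. Both were thus ordered as most of the 10 genes were in the hairpin arm. Subunits of RNA polymerase I had a peak at 6 of 8 genes in the control list and 8 of 8 in the other 4 lists, and those of RNA polymerase III at 6 of 11 and then 11 of 11. General initiation factors had one at 12, 17, 17, 18 and 17 of 18 genes, and factors for RNAPII assembly and import at 9 of 11 in control cells and 11 of 11 elsewhere.

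The covered length of these related genes was at least 2 times higher upon shRNA5 at 6 of 8 polymerase I genes, 9 of 11 polymerase III genes, 11 of 17 initiation factor genes with a peak and 8 of 11 assembly genes. Upon shRNA7 it was so at 7, 10, 16 and 10 of them. With doxycycline it was at most 1/2 at 3 polymerase I, 0 polymerase III, 4 initiation factor and 2 assembly genes, and at least 2 times higher at 2 assembly genes. As a check of the cells, ALB, HBB, CD3E, PTPRC and INS, which mark lineages other than kidney, had 0 peaks in every list.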

How the data were processed

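RNAPII ChIP-seq libraries, made with an RNAPII antibody, and IgG libraries were compared as 9 samples with 1 library per group. Per the labels and the study's methods, the authors used CASAVA 1.8, aligned single-end reads to hg19 (GRCh37) with Bowtie 0.12.7, and called peaks per library against IgG with MACS 1.4.2. The deposited lists give each peak's tags, a count that the authors did not normalize. Its p-value is deposited as −10 × log10 (the significance score), and its fold enrichment is the authors' ratio over local background. The FDR is deposited in percent. The lists hold no library totals, and the study's methods report similar read numbers for the samples compared, so tags were not rescaled. The exact depth of each library is unknown. Peaks numbered 5287 (control shRNA), 23698 (shRNA5), 32124 (shRNA7), 47060 (0.0 ng/ml doxycycline) and 33900 (1.0 ng/ml), with at least 35, 27, 26, 9 and 11 tags in a peak, so levels were compared only within an arm. The median peak was 1905, 1834, 2024, 622 and 689 bp long in the same order. For wild-type (control), shRNA5 and shRNA7 cells the study's methods report more peaks than these lists hold. In proportion the shortfall is largest for the control list, and its part in the folds over control was not tested.

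From these lists, peaks were assigned to GENCODE 44 genes lifted to GRCh37 by an overlap of at least 1 bp with the span widened by 500 bp (Python 3.11.15, NumPy 2.4.6, SciPy 1.17.1), and steps were tested on simulated data. Folds of tags have exact binomial (Clopper-Pearson) intervals turned into odds, at 95%. Tags from PCR are not independent molecules, so the intervals cover counting error only. All 10 genes are named. The members, gene lists and alternatives were chosen with earlier results of these data known. The division of POLR2A at 11 kb and the POLR2I gap were described after seeing the data. Alternatives were a significance score of at least 100, an FDR of at most 5%, a fold enrichment of at least 10, merging of peaks under 1 kb apart, spans not widened, summits inside the span, and lists of equal length. A count over markers of the cells' own lineage is not reported here.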

Additional observations from a re-analysis of the deposited data

Results flagged for a closer look

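POLR2I was the one gene at which the tags listed for the start were above the control in one hairpin list and below it in the other. The peak at its start held 124 tags in control cells and 220 tags upon shRNA5, and upon shRNA7 no peak was listed, so the tags in peaks there were 0. The difference between the hairpins was not tested, since each had 1 library. Its covered length was 1.25 kb in control cells, 1.24 kb upon shRNA5 and 0.0 kb upon shRNA7. By covered length, therefore, shRNA5 and the control were nearly alike. The shRNA7 list held no peak over the surrounding 232.7 kb, 1 of 43 such gaps. Whether peaks are missing from that list is not known, so the 0 cannot be read as a fall, and the part of the gap in the result was not tested.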

How the results depend on the processing

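No paired analysis was possible because there was 1 library in each group, and for the same reason no replicate could be left out. Of 133 recomputed values 96 stayed within their limits and 37 moved. Most of these values are counts of genes or peaks, which have no interval and no direction that could reverse. Their limits were wide, since a fall from 9 to 6 genes with a peak upon shRNA7 still counted as within them. Only the tag folds have a direction, and no recomputed fold fell below 1. When peaks needed a score of at least 100, the genes with a peak in the control list numbered 2 and the peaks 5 (control), 20 (no doxycycline) and 14 (doxycycline). The tag folds were 2.91 (shRNA5) and 4.78 (shRNA7), covered length was at least 2 times higher at 7 genes with shRNA5 and 1 with doxycycline, and at most 1/2 at 0 with shRNA7. With an FDR of at most 5% the shRNA7 fold was 4.06. With a fold enrichment of at least 10 there were 11 (shRNA5) and 12 (shRNA7) peaks, the folds were 1.79 and 3.86, shRNA7 had 5 genes higher and 0 lower, shRNA5 had 1 lower and doxycycline had 5 lower. Merging left 21 peaks without doxycycline and gave folds of 5.00 (shRNA5) and 4.48 (shRNA7), which turned the order of the hairpins. The shRNA5 fold was 2.57 with spans not widened and 2.23 with summits inside the span, where the shRNA7 fold was 3.15. With the 5287 strongest peaks of each list, 6 genes without and 5 with doxycycline had a peak. The peaks were 10 (shRNA5), 8 (shRNA7), 11 (no doxycycline) and 8 (doxycycline), and the folds 1.92 (shRNA5), 2.53 (shRNA7) and 1.62 (doxycycline). Higher genes then numbered 2 (shRNA5), 5 (shRNA7) and 1 (doxycycline), and lower genes 1 (shRNA5) and 2 (shRNA7). The cause was not tested. Fewer peaks are kept by construction under each stricter threshold. Exact library totals are unknown, which limits all folds.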
